A study of Mus musculus with 8 samples.

Results

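The transcripts described here are those of the nuclear genes for oxidative phosphorylation in the mouse lens. Members were the probe sets (groups of short oligonucleotides for 1 transcript) of the MG-U74Av2 chip with 1 gene symbol that begins with Nduf, Sdha to Sdhd, Uqcr, Cox4 to Cox8 or Atp5, or is Cyc1 or Cycs, and each gene was represented by the probe set with the highest mean signal over the arrays. This rule found 75 genes, on 103 probe sets, among the 8251 genes with a probe set of 1 symbol. Complex I had 31 members, complex II 6, complex III 8, complex IV 15 and complex V 14, and cytochrome c (Cycs) was the remaining one. Ndufaf1, Ndufaf4, Sdhaf1 and Sdhaf2 fall under the rule by name but encode assembly factors. A further 10 probe sets with several symbols, such as those shared by Cox7c or Ndufs6 and a related gene or pseudogene, were left out.

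Lens RNA from 10-day-old mice was hybridized to 8 arrays. There were 4 groups of 2 arrays, WT and alpha3Cx46 KO lenses from each of the strains 129SvJae and C57BL/6J. RNA was pooled from 20 to 30 lenses for a sample, the labels give the sex as both, and no mice were treated. The KO mice lack alpha3Cx46, the gap junction subunit of lens fiber cells encoded by Gja3, and in both strains they were compared with WT mice of the same strain before cataracts are visible. The study asked which transcripts differ between the strains, whose KO lenses differ in the severity of cataract, and which differ between KO and WT lenses. The series describes separate samples within a group, without saying whether different animals went into them, so the p-values cover the spread between these samples alone, and that spread may be technical.

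Oxidative phosphorylation couples the transfer of electrons to the synthesis of ATP in the inner mitochondrial membrane. NADH is oxidized at complex I and succinate at complex II, electrons pass through ubiquinone to complex III and by cytochrome c to complex IV, where oxygen is reduced, and ATP synthase (complex V) uses the resulting proton gradient. In the lens, mitochondria are found in the epithelium and the outer fiber cells, mature fiber cells lose theirs, and glycolysis supplies much of the ATP of the tissue. Since whole lenses were used, fewer cells with mitochondria and less RNA per cell cannot be told apart.

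The tissue and genotype labels were checked on named probe sets. All 6 lens fiber markers on them (Cryaa, Crybb2, Crygs, Mip, Bfsp1 and Gja3) were above a signal of 50 on all 8 arrays, as were all 3 lens epithelium markers. The targeted gene Gja3 had signals of 1100 and 3381 in 129SvJae WT, 1968 and 3274 in C57BL/6J WT, and from 445 to 519 on the 4 KO arrays. The run records place all 4 replicate 1 arrays in the same scan session (session 1), 3 of the replicate 2 arrays in session 2, and the remaining one, of 129SvJae WT, by itself in session 3. For 1 array, C57BL/6J WT replicate 1, a communication error of the fluidics station was logged.

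RefSeq promoter windows (GRCm38.p6, 250 bases before to 50 bases after the annotated start) matched 61 of the 75 members. Those printed are of 4 genes with an unadjusted p under 0.05 between strains (below) and a motif before the start, since nuclear factors that bind such elements are known to act on many of these genes. Of the 61, 16 (26.2%) held GCGCANGCG, the core of the NRF-1 element, on either strand, against 7.03% of 27025 genes with a window. The ETS and GABP core CCGGAAG was found in 18 (29.5%) against 9.93%, the YY1 core AAGATGGCG in 5 (8.2%) against 1.64%, and the ERR element TCAAGGTCA in 1 (1.64%, Sdhd) against 0.466%. The CCAAT box was found in 26 (42.6%) against 41.1%, and no matches of different motifs overlapped in the member windows. These are matches of letters and not shown sites. The 110 bases directly before the start are printed below 5′ to 3′ on the strand of the gene, with matches to any of the 5 motifs on either strand in capitals.

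Sdhd, chr9:50603850-50603959, minus strand: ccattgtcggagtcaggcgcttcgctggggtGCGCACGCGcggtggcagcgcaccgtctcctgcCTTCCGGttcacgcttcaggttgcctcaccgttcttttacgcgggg

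Atp5e, chr2:174464102-174464211, minus strand: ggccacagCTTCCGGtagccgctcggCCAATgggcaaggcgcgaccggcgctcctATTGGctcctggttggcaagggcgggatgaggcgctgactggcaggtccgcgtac

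Atp5md, chr19:47090648-47090757, minus strand: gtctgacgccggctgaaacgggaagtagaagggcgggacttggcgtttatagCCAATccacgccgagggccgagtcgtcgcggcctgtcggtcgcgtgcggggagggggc

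Atp5c1, chr2:10080433-10080542, minus strand: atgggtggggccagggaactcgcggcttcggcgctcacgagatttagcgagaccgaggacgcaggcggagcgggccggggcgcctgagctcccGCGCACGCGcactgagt

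The Sdhd window held both the NRF-1 core and, on the opposite strand, the ETS core, and its ERR element lay after the start. Atp5e held the ETS core on the opposite strand and a CCAAT box in each orientation, Atp5md a CCAAT box, and Atp5c1 the NRF-1 core before the second of its annotated starts. The same stretch of Atp5o and Ndufb5 held none of these letters. After the start, the Atp5o window held the NRF-1 core and the Atp5md window the ETS core. Cox6a2, Atp5mpl and Cox6c, which also differed at that level, are among the 14 members without a window.

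Of the 75 members, 74 reached a mean above 50 in a group and were tested, and 64 were above 50 on all 8 arrays. Cox8a, the widely expressed isoform of subunit 8 of cytochrome c oxidase, was between 4.2 and 17.7 on all arrays and was not tested. The probe sets of 55 tested members had no suffix letter in their names. The other 19 carried a letter, f in 11 and r in 4, by which the manufacturer marks probes shared by related transcripts (f) or chosen under relaxed rules (r), and processed pseudogenes are known for many of these genes.

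The strain comparison set the 4 C57BL/6J arrays against the 4 129SvJae arrays on the log2 scale in 1 limma fit with the 4 group means. No member differed between strains at a Benjamini-Hochberg adjusted p under 0.05, whereas 37 of 10078 probe sets did (0.367%). At an unadjusted p under 0.05 there were 9 members of 74 (12.2%), against 703 probe sets (6.98%). Of these, 3 were higher in C57BL/6J (Cox6c, Sdhd and Atp5e; 3.65% of all probe sets) and 6 were lower (Cox6a2, Ndufb5 and the ATP synthase members Atp5md, Atp5mpl, Atp5o and Atp5c1; 3.32% of all). The median log2 ratio of the members was -0.08 (quartiles -0.24 and 0.08), and that of all probe sets was 0.01 (quartiles -0.27 and 0.32). In 29 members (39.2%) the ratio was above 0, as it was in 50.9% of all probe sets. All 4 C57BL/6J arrays were above all 129SvJae arrays for 3 members (4.05%; 2.95% of all probe sets) and below them for 7 (9.46%; 2.62% of all).

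**Figure D1:**
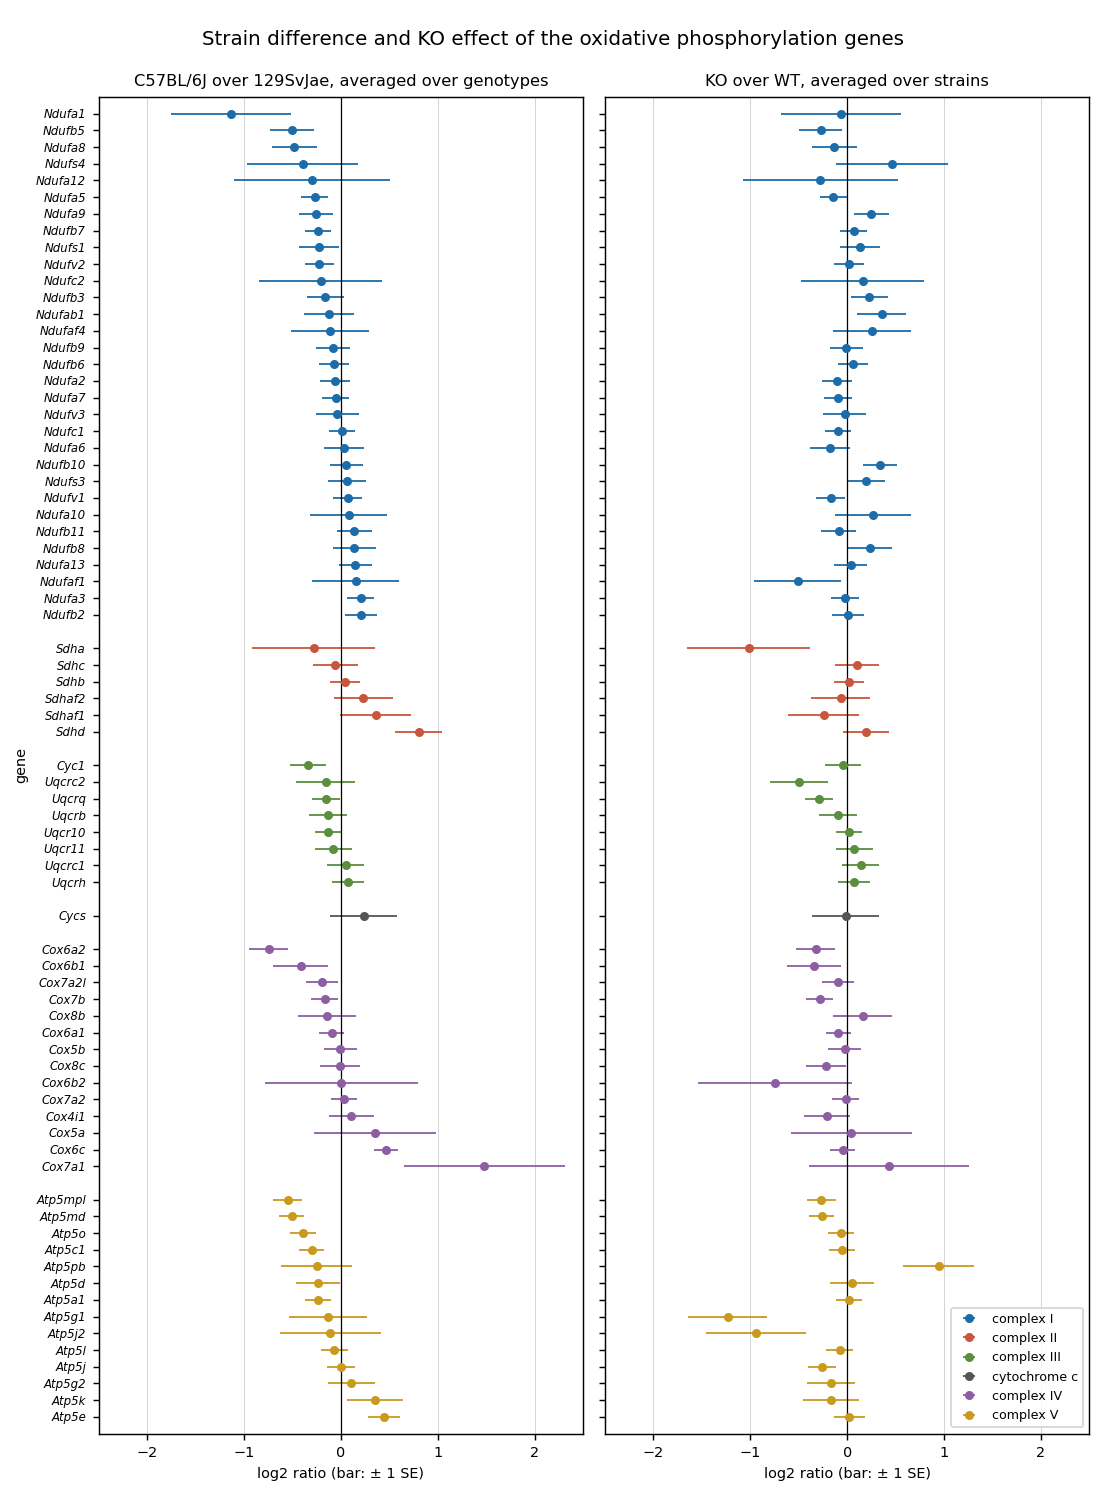
Log2 ratio of each of the 74 tested members with a bar of 1 SE on each side, by complex and ordered by strain ratio; the left panel gives C57BL/6J over 129SvJae and the right panel KO over WT, 4 arrays against 4. Most points lie within 0.5 of 0 in both panels, 10 of the 14 complex V members lie left of 0 in the left panel, and the widest bars belong to members with low signals, such as Cox7a1.

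Complex V, ATP synthase, held 5 of the 7 members with all C57BL/6J arrays lower. Its median log2 ratio was -0.19, with 10 of 14 members below 0, and that of the 60 members outside complex V was -0.06. Measured as the median deviation of its 14 members from their means over the 8 arrays, complex V lay at 0.222 and 0.147 in 129SvJae WT, -0.009 and 0.108 in 129SvJae KO, 0.035 and -0.056 on the C57BL/6J WT arrays and -0.171 and -0.118 on the C57BL/6J KO arrays. The lowest values were thus those of C57BL/6J KO and the highest those of 129SvJae WT, while the same measure over all probe sets ran from -0.052 to 0.106. Of 5 retina photoreceptor markers none was above 50 on all arrays. Their summed signal was 302 to 824 in 129SvJae WT, 111 to 406 in 129SvJae KO, 152 to 192 in C57BL/6J WT and 153 to 329 in C57BL/6J KO. The highest sum was that of 129SvJae WT replicate 1, where Sag, the photoreceptor arrestin, read 475. The other 129SvJae WT array, at 302, lay within the ranges of both KO groups. Among 2 red blood cell markers, 4 of pigment cells and 4 of white blood cells, 1 of each list was above 50 on all arrays (Hba-a1, Pmel and Csf1r). The summed signals overlapped between strains. Hba-a1 had a strain ratio of -0.52 (limma adjusted p = 0.852), Csf1r -0.80 (adjusted p = 0.696) and Pmel 0.39 (adjusted p = 0.952). The part of such cells in the complex V values was not tested. Atp5md, a small membrane subunit of the synthase, had signals of 6890 and 6011 in 129SvJae WT, 4651 and 4975 in 129SvJae KO, 4209 and 3919 on the C57BL/6J WT arrays and 3703 and 3826 in C57BL/6J KO. Its groups did not overlap between strains, with a log2 ratio of -0.51 ± 0.13 (SE, n = 4 arrays per strain; limma adjusted p = 0.179). Atp5mpl, another small membrane subunit, was at 4857 and 4207 in 129SvJae WT, 3581 and 3857 in 129SvJae KO, 3466 and 2691 on the C57BL/6J WT arrays and 2870 and 2298 in C57BL/6J KO. The highest C57BL/6J array lay just below the lowest 129SvJae array, and the log2 ratio was -0.55 ± 0.15 (adjusted p = 0.222).

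Atp5o, which links the peripheral stalk to the catalytic head, read 2815 and 3356 in 129SvJae WT, 3333 and 3429 in 129SvJae KO, 2602 and 2785 on the C57BL/6J WT arrays and 2144 and 2333 in C57BL/6J KO. The strains were nearest in WT lenses (log2 ratio -0.19) and farther apart in KO lenses (-0.60), and the average was -0.39 ± 0.14 (adjusted p = 0.449). Atp5c1, the gamma subunit of the rotor, gave 3521 to 4239 on the 129SvJae arrays and 2996 to 3172 on the C57BL/6J arrays, a log2 ratio of -0.30 ± 0.13 (adjusted p = 0.690). The second probe set of Atp5c1 showed no such separation, at 0.02 ± 0.15. Atp5a1, the alpha subunit of the catalytic head, also had non-overlapping arrays, 3105 to 3598 against 2783 to 2990 (-0.24 ± 0.13).

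Atp5e, the epsilon subunit of the rotor, pointed the other way. It was at 1022 and 1431 in 129SvJae WT, 1405 and 1613 in 129SvJae KO, 2134 and 1915 on the C57BL/6J WT arrays and 1537 and 1825 in C57BL/6J KO. The strains overlapped in KO lenses, and the ratio of 0.45 ± 0.16 (adjusted p = 0.493) combined 0.74 in WT with 0.15 in KO lenses. The difference between these ratios was -0.59 ± 0.33 (limma adjusted p = 1 for the interaction). Atp5g1 and Atp5g2, which encode the same mature c subunit of the rotor ring, had strain ratios of -0.13 ± 0.41 and 0.11 ± 0.25.

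Complex IV, cytochrome c oxidase, has subunits with tissue isoforms. Cox6a2, the isoform of subunit 6A best known from heart and skeletal muscle, had signals of 567 and 623 in 129SvJae WT, 541 and 509 in 129SvJae KO, 410 and 374 on the C57BL/6J WT arrays and 266 and 301 in C57BL/6J KO. Every 129SvJae array was above every C57BL/6J array, and the log2 ratio was -0.75 ± 0.20 (adjusted p = 0.222). Within session 1 it was -0.47 in WT and -1.02 in KO lenses, and within session 2, which held no 129SvJae WT array, it was -0.76 in KO lenses. The widely expressed isoform Cox6a1 ran from 10606 to 13564 over all arrays, with a ratio of -0.09 ± 0.13.

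The muscle markers were read beside Cox6a2. Of 11 skeletal and heart muscle markers, 4 were above 50 on all 8 arrays (Ckm, Mylpf, Myh4 and Actc1) and Mb, the gene for myoglobin, was above 50 on none. Acta1, the skeletal muscle actin, was above 50 on 1 array. The summed signal of the 11 ranged from 1450 to 1530 in 129SvJae WT, 1090 to 1470 in 129SvJae KO, 1300 to 1550 on the C57BL/6J WT arrays and 1110 to 1520 in C57BL/6J KO. These ranges overlapped between strains, but Actc1 alone gave 501 to 859 of each sum. Acta1, Myh1, Myh6 and Mb were too dim to be tested. Among the tested muscle markers, the one with a ratio as negative as that of Cox6a2 was Tnnc2 (-1.05, adjusted p = 0.698). Among the other muscle isoforms of cytochrome c oxidase, Cox8b had a ratio of -0.15 ± 0.30. Cox7a1 was above 50 on 1 array only, the C57BL/6J KO replicate 1 array at 77.4, and its ratio of 1.48 ± 0.83 (adjusted p = 0.821) rests on signals near background.

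Cox6c, a small nuclear subunit, was higher in C57BL/6J lenses. Its signals were 6646 and 6233 in 129SvJae WT, 5558 and 5684 in 129SvJae KO, 8580 and 7536 on the C57BL/6J WT arrays and 8482 and 8740 in C57BL/6J KO. The strains did not overlap, the arrays of a group lay close together, and the log2 ratio was 0.47 ± 0.13 (adjusted p = 0.222). With quantile normalization of the arrays, which called 36 of all probe sets, it was the only member called, at 0.56 ± 0.10 (adjusted p = 0.0422). The used probe set is 1 of the 11 with the letter f, and the other 2 probe sets of Cox6c were dim, with ratios of 0.42 ± 0.59 and 0.30 ± 1.06. The remaining isoforms showed strain ratios of 0.11 ± 0.23 for Cox4i1, -0.41 ± 0.28 for Cox6b1, 0.00 ± 0.79 for Cox6b2 (the testis isoform of subunit 6B), 0.03 ± 0.14 for Cox7a2 and -0.19 ± 0.16 for Cox7a2l, which takes part in the assembly of supercomplexes.

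**Figure D2:**
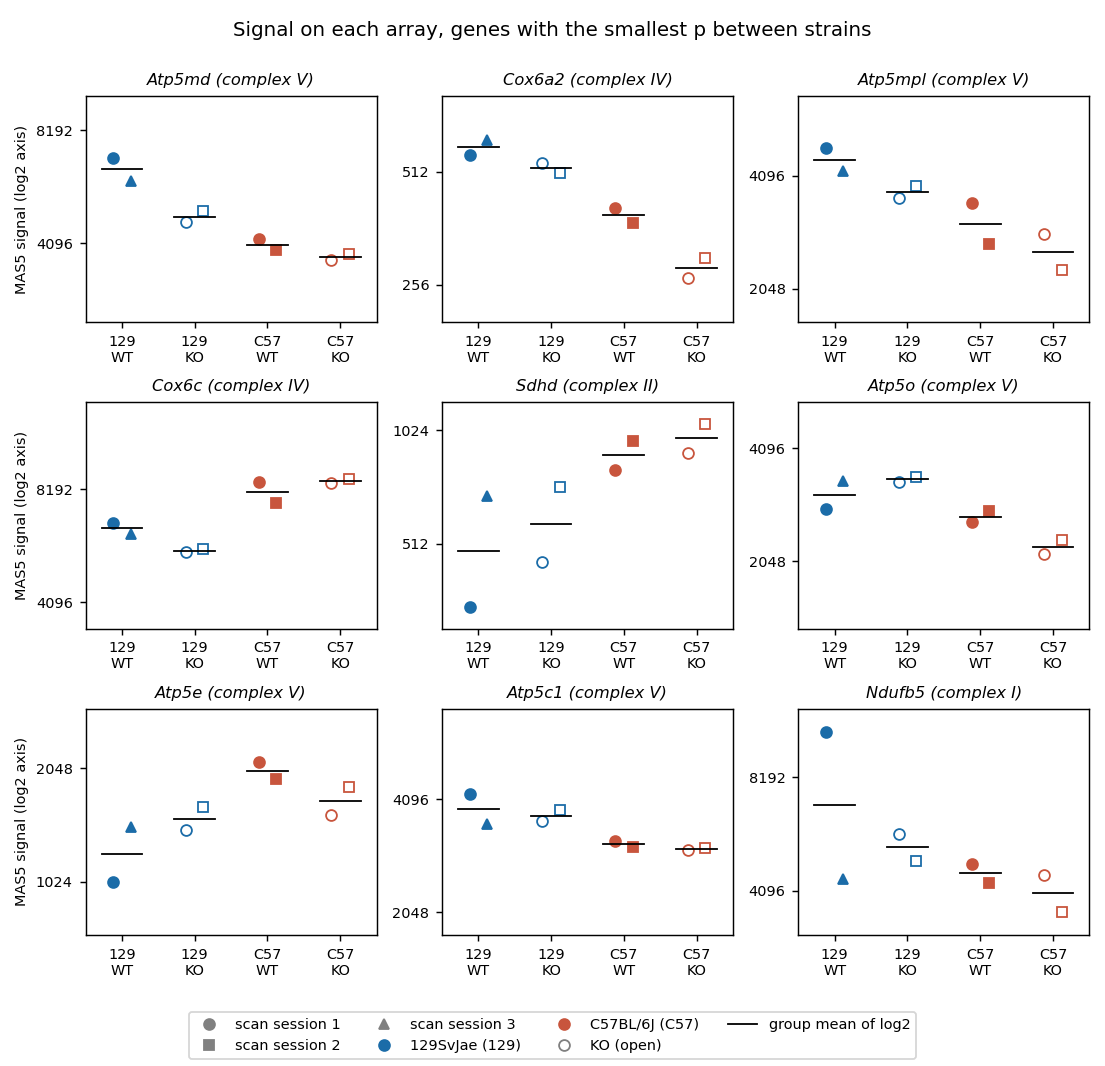
MAS5 signal on a log2 axis of the 9 members with an unadjusted p under 0.05 between strains, on each array; colour gives the strain, open symbols KO lenses, shape the scan session, and lines the group means of the log2 values. Cox6a2, Cox6c, Sdhd, Atp5md, Atp5mpl, Atp5o and Atp5c1 separate the strains on every array. In the Atp5e and Ndufb5 panels the strains overlap, and the Ndufb5 panel has a single high array, 129SvJae WT replicate 1.

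Complex II, succinate dehydrogenase, contains the largest ratio among members above 50 on all arrays. Sdhd, a membrane anchor of the complex, was at 348 and 686 in 129SvJae WT, 457 and 726 in 129SvJae KO, 804 and 959 on the C57BL/6J WT arrays and 893 and 1063 in C57BL/6J KO. The C57BL/6J arrays were all higher, but replicate 2 exceeded replicate 1 in each group, by 0.25 to 0.98 on the log2 scale. The strain ratio was 0.80 ± 0.24 (adjusted p = 0.319). Within session 1 it was 1.21 in WT and 0.96 in KO lenses and within session 2 it was 0.55 in KO lenses. With the scan session as a block it was 0.95 ± 0.18 and Sdhd was called (adjusted p = 0.0482). That block leaves 129SvJae WT replicate 2, alone in its session, without weight, and 86 of all probe sets were called under it.

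The other subunits of complex II had strain ratios nearer to 0. The second membrane anchor Sdhc had a ratio of -0.06 ± 0.23, the iron-sulfur subunit Sdhb 0.04 ± 0.16 and the flavoprotein Sdha, which was at 12.4 to 168, -0.28 ± 0.63. The assembly factors Sdhaf1 and Sdhaf2 had ratios of 0.36 ± 0.37 and 0.23 ± 0.31.

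Complex I, NADH dehydrogenase, had 1 member of 31 with an unadjusted p under 0.05 (3.23%, against 6.98% of all probe sets) and a median strain ratio of -0.07, with quartiles of -0.23 and 0.07 and a range of -1.14 to 0.21. That member was Ndufb5, an accessory subunit of the membrane arm, with 10816 and 4403 in 129SvJae WT, 5791 and 4908 in 129SvJae KO, 4828 and 4292 on the C57BL/6J WT arrays and 4505 and 3595 in C57BL/6J KO. The first array was far above the others, and the strains overlapped. The ratio of -0.50 ± 0.23 (adjusted p = 0.698) became -0.18 without 129SvJae WT replicate 1 (adjusted p = 0.995) and -0.83 without replicate 2 of that group (adjusted p = 0.0255). With the scan session as a block it was -0.77 (adjusted p = 0.011), so its call depended on the arrays kept. The same block also called Atp5md (-0.56 ± 0.11, adjusted p = 0.0493). The next smallest p-values in complex I belonged to the accessory subunits Ndufa8 (-0.48 ± 0.24) and Ndufa5 (-0.27 ± 0.14). Ndufa1 had non-overlapping strains, with 44.7 to 99.4 in 129SvJae and 20.3 to 37.7 in C57BL/6J lenses, at signals near background.

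Complex III, the cytochrome bc1 complex, and cytochrome c had no member with an unadjusted p under 0.05 (0%, against 6.98% of all probe sets). At that share, so few genes could well hold none. The 8 strain ratios of complex III lay between -0.34 and 0.08. Cyc1, the heme protein cytochrome c1, had the lowest strain ratio of complex III, -0.34 ± 0.19 (adjusted p = 0.811), while its second probe set gave 0.40 ± 0.22. The small subunits Uqcrq and Uqcr10 had ratios of -0.15 ± 0.14 and -0.13 ± 0.13, and Cycs 0.24 ± 0.35. Over all members, 22 other probe sets of 17 genes could be tested, and 10 of them had the same sign of strain ratio as the probe set used.

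The strain difference was also taken in each genotype alone, between 2 arrays and 2. No member was called in WT lenses (0.0695% of all probe sets) or in KO lenses (0.0893%). At an unadjusted p under 0.05 there were 4 members in WT lenses (5.41%; 6.47% of all) and 6 in KO lenses (8.11%; 3.74% of all). The median ratio was -0.05 in WT and -0.09 in KO lenses. The comparisons share no arrays, and across the 74 members the ratios in WT and KO lenses had a Pearson correlation of 0.142, against 0.099 across all probe sets. For the 64 members above 50 on all arrays it was 0.428. All probe sets were not restricted in that way, so this value has no matching comparison. Genes are not independent replicates, and the arrays compared share scan sessions.

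**Figure D3:**
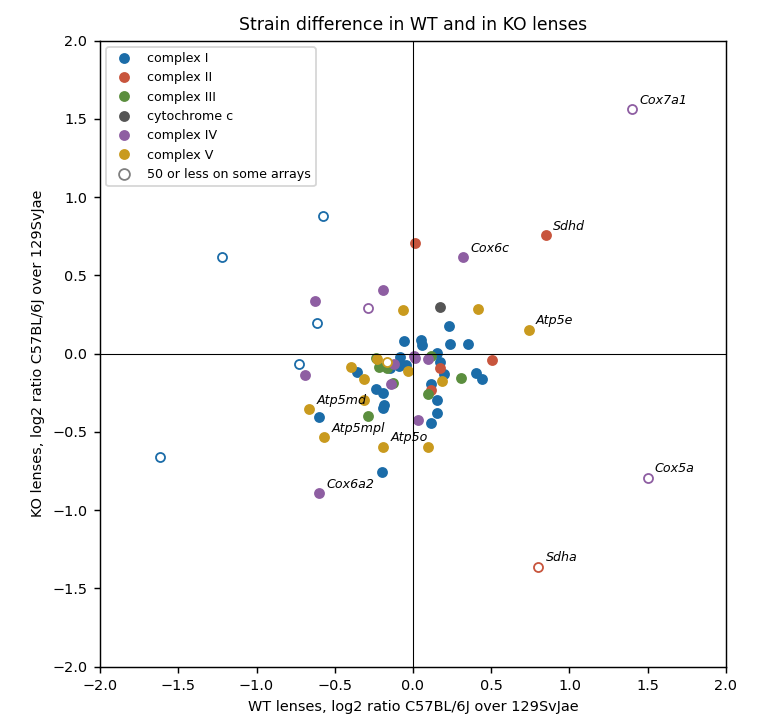
Log2 ratio of C57BL/6J over 129SvJae in WT lenses (x axis) and in KO lenses (y axis) for each tested member, 2 arrays against 2; colour gives the complex, and open symbols are members at 50 or less on some arrays. Sdhd and Cox6c lie in the upper right and Cox6a2, Atp5mpl and Atp5md in the lower left, while Cox5a and Sdha, both dim, lie in the lower right.

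The comparison of KO with WT lenses asked whether loss of alpha3Cx46 went with other levels of these transcripts. No member was called with the strains averaged (0.0198% of all probe sets), in 129SvJae lenses (0%) or in C57BL/6J lenses (0.00992%). At an unadjusted p under 0.05 there were 2 members averaged over strains (2.7%; 3.05% of all), 3 in 129SvJae (4.05%; 3.12% of all) and 2 in C57BL/6J lenses (2.7%; 2.31% of all). The median log2 ratio of KO over WT was -0.05 for members and -0.02 for all probe sets. By complex the medians were 0.01 (I), -0.02 (II), -0.01 (III), -0.09 (IV) and -0.12 (V). All KO arrays were above all WT arrays for 2 members (2.7%; 0.972% of all) and below them for 1 (1.35%; 1.22% of all).

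These 3 members were Atp5g1, Atp5pb and Ndufb10. Atp5g1, a gene of the c subunit, had signals of 263 and 176 in 129SvJae WT, 103 and 70.6 in 129SvJae KO, 267 and 126 on the C57BL/6J WT arrays and 62.9 and 111 in C57BL/6J KO. The KO arrays were all lower, with a log2 ratio of -1.23 ± 0.41 (adjusted p = 0.998). The second probe set of Atp5g1, at 36.9 to 72.7, gave 0.11 ± 0.55. For the probe set used, the KO over WT log2 ratios of same-numbered pairs of arrays ranged from -2.09 to -0.19. Atp5pb, subunit b of the peripheral stalk, was at 80.8 and 95.1 in 129SvJae WT, 250 and 184 in 129SvJae KO, 73.5 and 120 on the C57BL/6J WT arrays and 142 and 142 in C57BL/6J KO. The KO arrays were all higher, at 0.94 ± 0.37 (adjusted p = 0.998). Ndufb10, an accessory subunit of complex I, was at 797 to 1127 on the WT arrays and 1141 to 1275 on the KO arrays (0.34 ± 0.17, adjusted p = 0.998).

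The other members named for KO against WT gave smaller or more variable ratios. Sdha was at -1.02 ± 0.63, and 1 array, C57BL/6J KO replicate 1 at 12.4, was far below the others. In complex III Uqcrc2, a core protein, was at -0.50 ± 0.30 and Uqcrq at -0.29 ± 0.14. In complex IV Cox6a2 was at -0.32 ± 0.20 and the small subunit Cox7b at -0.28 ± 0.14. The accessory complex I subunit Ndufa9 was at 0.25 ± 0.18 and Sdhd at 0.19 ± 0.24.

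**Figure D4:**
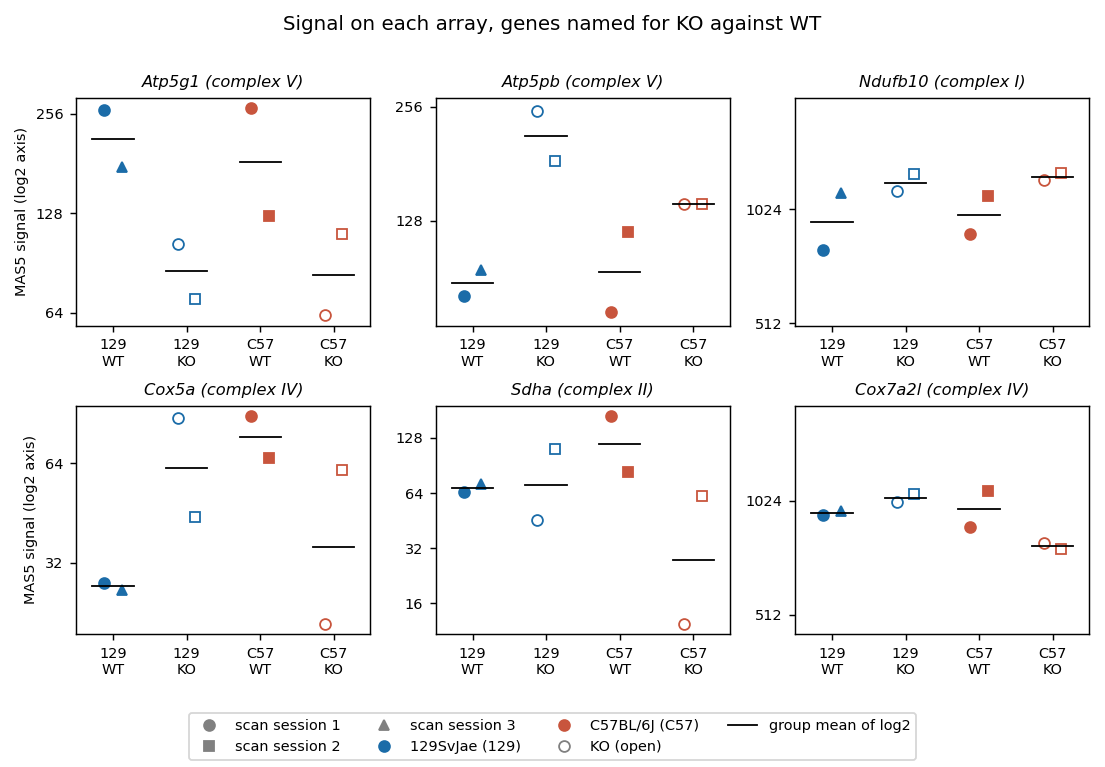
MAS5 signal on a log2 axis on each array for 6 members named for KO against WT; colour gives the strain, open symbols KO lenses, shape the scan session, and lines the group means of the log2 values. In the top row the KO arrays lie below (Atp5g1) or above (Atp5pb, Ndufb10) all WT arrays, and in the bottom row the KO difference differs in sign between strains or, for Sdha, varies with the array.

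The interaction, the strain difference in KO lenses minus that in WT lenses, called no member and no probe set (0%), and no member had an unadjusted p under 0.05 (2.11% of all probe sets did). The smallest p-values were those of Cox5a (-2.29 ± 1.26), Atp5e, Sdha (-2.16 ± 1.27) and Ndufb11, an accessory complex I subunit (-0.60 ± 0.36), each with a limma adjusted p of 1. Cox5a was above 50 on 4 of 8 arrays, at 27.8 and 26.6 in 129SvJae WT, 87.4 and 44.0 in 129SvJae KO, 88.7 and 66.5 on the C57BL/6J WT arrays and 21.0 and 61.1 in C57BL/6J KO. The group means of the strains were in opposite order in WT and KO lenses, but the strains overlapped in KO lenses, and the signals were near background.

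Many members differed between the arrays of a group in the same way in all 4 groups. Replicate 2 was higher than replicate 1 in every group for 17 members and lower in every group for 12, together 39.2% of the 74, against 24% of all probe sets. The 17 included 10 of complex I (such as Ndufs3, a subunit of the electron-transferring arm, at 0.30 to 0.61 on the log2 scale) and Sdhb, Sdhc and Sdhd of complex II. The 12 included Uqcrc2, with differences of -1.20 to -0.80, Uqcrb, Uqcrq and the testis isoform Cox6b2. Uqcrc2 read 1446 to 1988 on the replicate 2 arrays and 2526 to 4549 on the replicate 1 arrays, so its arrays separated by number. Within each number the KO arrays were all lower than the WT arrays, with KO over WT log2 ratios of -0.59 to -0.35 in same-numbered pairs. The replicate number follows the scan session in all groups except 129SvJae WT, whose second array was scanned in a session of its own. The part of sessions, pools and hybridizations in the differences between replicates was not tested. The fit with the number as a block called no member between strains (58 of all probe sets).

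**Figure D5:**
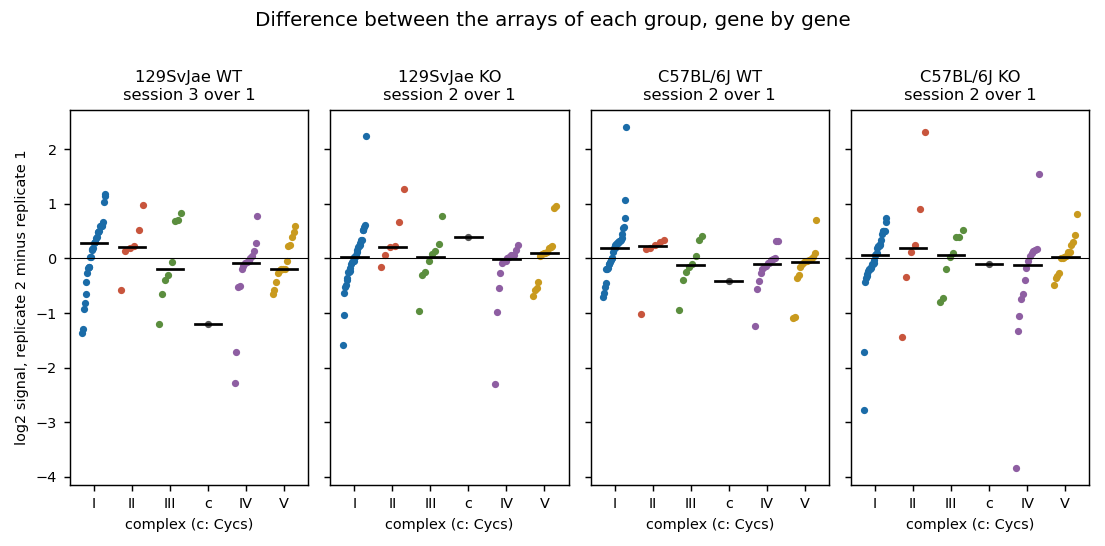
Log2 signal of replicate 2 minus replicate 1 for each tested member in each group, by complex, with a black line at the median of the complex; the panel titles give the scan sessions compared. Differences within a group reach beyond 2 for a few members, and in complex II the median is above 0 in all 4 groups.

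Other genes of mitochondrial metabolism were read beside the members, from lists chosen by function. No gene of these lists was called between strains. Of 59 mitochondrial ribosomal proteins tested, 2 were higher and 1 lower in C57BL/6J at an unadjusted p under 0.05 (5.08% together, against 6.98% of all probe sets), with a median ratio of -0.11. The smallest p-values were those of Mrps12 (1.27 ± 0.40, adjusted p = 0.367) and Mrpl45 (-0.65 ± 0.22, adjusted p = 0.438). Of 11 assembly factors outside the rule, 1 passed that level (9.09%, against the same 6.98%), Foxred1, a factor for complex I. It was at 79.2 and 72.3 in 129SvJae WT, 128 and 219 in 129SvJae KO, 216 and 231 on the C57BL/6J WT arrays and 331 and 226 in C57BL/6J KO, a log2 ratio of 1.14 ± 0.33 (adjusted p = 0.291). Its strains overlapped, since 1 129SvJae KO array was as high as the lowest C57BL/6J arrays. The copper chaperone Cox17 was at 0.25 ± 0.18.

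The 11 genes of mitochondrial transcription and biogenesis had a median ratio of 0.25, with 9 above 0. None had an unadjusted p under 0.05 (0%, against 6.98% of all probe sets). Polrmt, the mitochondrial RNA polymerase, was at 0.52 ± 0.33 and Tfb2m at 0.45 ± 0.43. The 13 carriers and porins had a median of -0.10 and the 10 genes of electron entry outside complexes I and II a median of -0.27. Again none passed that level (0% of each list, against the same 6.98%), and lists this small could well hold none. Examples were the phosphate carrier Slc25a3 (-0.61 ± 0.45), the porin Vdac1 (-0.75 ± 0.69), Etfb of the electron transfer flavoprotein (-0.26 ± 0.15) and Coq9 of ubiquinone synthesis (-0.45 ± 0.28). Nnt, the transhydrogenase that is known to be truncated in C57BL/6J mice, was at 208 to 242 on the C57BL/6J arrays and 207 to 392 on the 129SvJae arrays (-0.29 ± 0.28).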

How the data were processed

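The 8 arrays were grouped by the strain and genotype in their labels. The authors hybridized labelled cRNA to the chips. They deposited a linear intensity for each probe set on each array, the signal of MAS5 (the submitters' processing notes give no version), scaled by them to a mean of 250. Run records of each array were used for the scan session only. Probe-level data and detection calls were not used here. The number of arrays and the signal over background limit the precision.

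From these, the arrays were brought to a mean of 250 after trimming 2% at each end, 1 signal not above 0 was replaced by 1, and the 10078 of 12422 non-control probe sets whose mean exceeded 50 in any group were fitted on the log2 scale in R 4.3.3 with limma 3.58.1 (4 group means, variance trend, 4 residual and 9.17 prior degrees of freedom). P-values were adjusted over all 10078 by Benjamini-Hochberg and called under 0.05. Levels were not compared between probe sets. Symbols come from the platform annotation, updated through a GRCm38.p6 gene table (10833 probe sets with 1 symbol, 396 with several, 1193 with none).

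The members, lists, motifs and tests were chosen with earlier results of these data known. Named members are the 3 of each complex with the smallest unadjusted p between strains and the 2 for KO against WT, the 4 for the interaction, the tissue isoforms, the Sdh genes, Cyc1 and Cycs, and of each other list the 2 with the smallest p. Atp5c1, Atp5a1, Ndufa1, Nnt, the markers and the examples of replicate differences were named after their values were seen, as were the genes shown for promoter windows.

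Same-numbered arrays were taken as pairs in the replicate block, which was run as an alternative. The reason was that their deviations from group means correlated at 0.129 to 0.206 in all 6 pairs of groups over all tested probe sets. Over the members the correlations were 0.0711 to 0.586. The main fit had no block, so SEs and p-values given without a named block do not take the pairs into account. Alternatives were deposited signals, quantile normalization, median centring, a floor of 50, an offset of 16, level filters of none and 100, limma without the variance trend or with a robust prior, fits of the compared groups alone, the replicate or scan session block, the methods' t-test, the mean of a gene's probe sets, and each array left out. The fit was tested on simulated data, where it missed most of the strain differences put in, so a member not called may still differ.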

Additional observations from a re-analysis of the deposited data

Results flagged for a closer look

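Groups of 2 arrays were not searched for outlying arrays. For 3 members, the KO arrays lay on opposite sides of the WT arrays in the 2 strains, without overlap in either (4.05%; 3.72% of all probe sets). Cox5a had KO over WT log2 ratios of 1.19 in 129SvJae and -1.10 in C57BL/6J lenses, a difference of -2.29 ± 1.26 (SE; limma interaction, adjusted p = 1.0), at signals near background. Cox7a2l had 0.13 and -0.32, a difference of -0.46 ± 0.33 (adjusted p = 1.0). Uqcr10 had -0.09 and 0.12, a difference of 0.21 ± 0.27 (adjusted p = 1.0). None of these differences passed the test, and with 2 arrays per group such a pattern rests on 8 values.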

How the results depend on the processing

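The count of members called between strains was 0 (37 of all probe sets), and it was 1 with quantile normalization (Cox6c, 36 of all). With the scan session as a block it was 3 (Atp5md, Ndufb5 and Sdhd), while the calls over all probe sets rose to 86. Leaving an array out keeps 1 array in a group, and the Ndufb5 ratio then ran from -0.83 (without 129SvJae WT replicate 2) to -0.18. In WT lenses the count of members was 0 (7 of all probe sets) and 1 with the scan session block (Ndufb5, 38 of all). With the replicate block (paired arrays) it was 0, and no other call changed in that fit. In KO lenses, for the KO effects and for the interaction the count was 0 under every alternative run. The methods' t-test was applied to 4 arrays against 4 with its p cut alone. The paper's rule also asked for a minimum fold change, which was not applied here. At an unadjusted p of at most 0.01 the t-test gave 6 members between strains (8.11%, against 2.8% of all probe sets). These were Atp5a1, Atp5c1, Atp5md, Cox6a2, Cox6c and Ndufa1. For KO against WT it gave 2 (2.7%, against 0.675%), Atp5g1 and Atp5pb. After Benjamini-Hochberg it gave 0 members. The members' median strain ratio of -0.075 was -0.042 after quantile normalization, -0.127 after median centring, which moved the median of all probe sets from 0.008 to -0.044, and -0.095 to -0.043 with an array left out (-0.043 without C57BL/6J WT replicate 2). The median KO ratio of -0.047 was 0.052 after median centring (all probe sets 0.079) and -0.059 to -0.001 with an array left out (-0.001 without 129SvJae WT replicate 2). In restrictions chosen after seeing the data, the medians were -0.071 and -0.037 (strain, KO) over members above 50 on all arrays and -0.072 and -0.017 over those without a suffix letter. Cyc1 turned to 0.03 between strains with the mean of its probe sets, and Ndufb5 ranged from -0.60 to 0.05 for KO against WT with an array left out (0.05 without 129SvJae WT replicate 1). The causes were not tested beyond the arrays and probe sets named. Signals near 50, as of Cox5a, Cox7a1 and Sdha, limit what these arrays can show.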
